A study of Mus musculus with 16 samples.

Results

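The genes described here supply the cell with amino acids and load them onto transfer RNA. The list holds 39 genes. They comprise 4 stress-induced regulators with asparagine synthetase, 6 enzymes of serine and one-carbon metabolism, 7 amino acid transporters, 4 enzymes of proline synthesis and transamination, and 18 cytosolic aminoacyl-tRNA synthetases. A single-symbol probe set was found for 32 of them, among 17097 genes in the annotation, and 31 of the 32 passed the filter on low values, among 14410 genes tested. Slc7a11, the cystine importer, was measured but stayed below the filter. Mthfd2, Slc1a4, Pycr1, Got1, Cars, Dars and Tars have no single-symbol probe set here and are named only; both Mthfd2 probe sets are listed with a second symbol, Gsn. Where several probe sets carried 1 symbol, the one with the highest mean over the 16 arrays stood for the gene, a choice that did not use the groups.

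Total RNA of luminal mammary epithelial cells, sorted by flow cytometry from mice, was measured on 16 arrays in 4 genotype groups of 4. Every group carries MMTV-Cre, a transgene that expresses Cre recombinase in mammary epithelium. The MMTV-Cre group carries it alone, and the group labelled p38a_MMTV-Cre adds a loxP-flanked p38a allele; both were 9 weeks old. The MMTV-Cre_PyMT and p38a_MMTV-Cre_PyMT groups have the same genotypes with MMTV-PyMT, which expresses the polyoma middle T oncogene in mammary epithelium and gives rise to mammary tumours; these mice were 6 weeks old. PyMT and age therefore cannot be told apart. The labels do not say that each array is a separate animal, so p-values measure the spread between these samples, which may be technical, and the number of arrays limits the precision. Replicate numbers only name arrays.

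Cells take up amino acids through membrane carriers, make the non-essential ones from glycolytic and mitochondrial intermediates, and attach each to its transfer RNA with a dedicated synthetase. When amino acids run short or proteins misfold, kinases phosphorylate the initiation factor eIF2, general translation slows and the transcription factor ATF4 is translated. ATF4, often paired with a C/EBP protein, then activates many of the genes listed here, a programme called the integrated stress response. Mammary epithelium draws heavily on these genes during milk protein synthesis, and several of them are often high in tumours.

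Array medians lay between 4.63 and 4.88 in log2 signal. Among all genes tested, limma called 0 genes for the p38a label without PyMT and 0 with it (690 and 516 at an unadjusted p under 0.05). It called 182 for PyMT without the p38a label and 112 with it. Mapk14, which encodes p38a, was the check of the label. Its log2 signal was 7.11, 7.43, 5.56 and 6.02 in the MMTV-Cre arrays and 6.79, 6.37, 7.91 and 8.16 in the arrays labelled p38a_MMTV-Cre, so 2 of the latter lay above every MMTV-Cre array. Its difference was 0.78 ± 0.416 (log2, standard error) without PyMT and 0.03 ± 0.416 with PyMT, and neither passed. Taken over all arrays without PyMT, the signal goes against the label, and the directions given below for p38a are those of the labels only. Where the probe set lies relative to the deleted part is not known here. By the numbers in the sample titles, 9 arrays form a lower range and 7 a higher one, of unknown meaning, and each group holds arrays of both. Within the lower range, Mapk14 was lower in the arrays labelled p38a_MMTV-Cre (6.79 and 6.37) than in MMTV-Cre (7.11 and 7.43). Within the higher range it was higher (7.91 and 8.16 against 5.56 and 6.02).

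Markers of basal cells were among those that moved with PyMT. The mean log2 signal of 7 basal markers was 5.83 to 7.80 over the MMTV-Cre arrays, 5.44 to 7.51 over those labelled p38a_MMTV-Cre, 7.29 to 8.32 with PyMT and 7.64 to 8.50 with PyMT and the p38a label. The 7 basal markers tested had a median PyMT difference of 1.34 without the p38a label, with 2 below 0 (lowest Myh11, −0.39). With the label the median was 1.77, with 1 below 0 (Oxtr, −0.28). Trp63, a basal transcription factor, differed by 2.20 ± 0.39 without the p38a label (limma adjusted p = 0.0142). With the label Trp63 differed by 1.77 ± 0.39 (limma adjusted p = 0.0504). Immediate early genes respond to growth factors and to cell isolation. Their mean was 8.16 to 8.97 in MMTV-Cre, 8.39 to 9.29 in p38a_MMTV-Cre, 9.31 to 9.84 with PyMT and 9.02 to 9.69 with both. Of 11 tested, 4 were called higher with PyMT without the p38a label, against 1.26% of all genes called. With the label 1 was called higher, against 0.777% of all genes. The mean of 7 leukocyte markers lay at 4.39 to 4.79 in MMTV-Cre, 4.21 to 4.89 in p38a_MMTV-Cre, 4.79 to 4.91 with PyMT and 4.78 to 4.95 with both, and the macrophage gene Cd68 was called with the p38a label (2.74 ± 0.56, adjusted p = 0.0357). The 5 leukocyte markers tested had a median difference of 0.06 in that comparison, with 2 below 0. The 3 fibroblast markers tested had a median PyMT difference of 1.05 without the p38a label, with 1 below 0 (Dcn, −1.37). With the label their median was 1.25, with 0 below 0, and none was called in either comparison. Fabp4, the only adipocyte marker tested, differed by 1.67 without the label and 0.12 with it, and was not called. The 5 endothelial markers had medians of 0.02 and −0.10. The mean of 9 luminal markers overlapped between the groups (9.23 to 10.24 over all arrays), and that of 11 proliferation genes likewise (5.66 to 8.06). The part of these cells in the differences with PyMT was not tested. In bulk RNA, fewer cells of a type and less RNA per cell cannot be told apart.

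The DNA element through which ATF4 and C/EBP proteins act is shown first because it is what many of the listed genes share by sequence. The search used TGATGNAA on both strands of RefSeq promoter windows of assembly GRCm38.p6, from 250 bases before to 50 bases after the start of transcription; no other motif was searched. A promoter window was found for 30 of the 39 genes, and 12 of them (40%) held at least 1 match, against 1219 of 27025 genes in the table (4.51%). The matches lay in 3 of 4 stress and asparagine genes, 0 of 6 serine and one-carbon enzymes, 2 of 5 transporters, 2 of 4 proline and transaminase enzymes and 5 of 11 synthetases. Many of the listed genes are long known as ATF4 targets, so this share is a description. The upstream stretches of 5 genes follow, written 5′ to 3′ on the strand of the gene, with the match in capitals; TTNCATCA is the same element read on the opposite strand.
Asns (chr6:7693210-7693272, minus strand): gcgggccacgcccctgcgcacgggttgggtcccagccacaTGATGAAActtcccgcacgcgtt
Chac1 (chr2:119351009-119351096, plus strand): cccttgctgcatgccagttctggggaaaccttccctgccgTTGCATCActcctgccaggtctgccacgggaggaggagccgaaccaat
Slc7a11 (chr3:50443614-50443719, minus strand): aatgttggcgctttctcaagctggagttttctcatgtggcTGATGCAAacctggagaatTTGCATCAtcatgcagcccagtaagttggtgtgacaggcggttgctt
Aars (chr8:111033690-111033777, plus strand): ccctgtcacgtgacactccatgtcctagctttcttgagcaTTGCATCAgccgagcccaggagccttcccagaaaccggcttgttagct
Gars (chr6:55037931-55038000, plus strand): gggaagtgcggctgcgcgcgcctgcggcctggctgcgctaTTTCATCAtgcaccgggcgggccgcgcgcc

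The stretch of Slc7a11 holds 2 matches in opposite orientations. Those of Asns, Slc7a11 and Gars reach to the last base before the start. In Chac1 and Aars the match lies further upstream, with its first base at −193 and −112 from the start.

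Among the transporters, Slc7a5 rose with PyMT in both genetic backgrounds. Slc7a5 encodes LAT1, the light chain of the exchanger that brings leucine and other large neutral amino acids into the cell. Its log2 signal was 7.77, 6.98, 7.67 and 6.86 in the MMTV-Cre arrays, and 9.13, 8.90, 8.33 and 8.60 in the MMTV-Cre_PyMT arrays. In the arrays labelled p38a_MMTV-Cre it was 6.49, 6.94, 6.99 and 6.40, against 7.95, 8.79, 8.82 and 8.14 in those labelled p38a_MMTV-Cre_PyMT. Every one of the 8 arrays with PyMT lay above every one of the 8 without it, a separation found in either direction for 1.06% of all genes tested. The group means rose from 7.32 ± 0.466 to 8.74 ± 0.35 without the p38a label and from 6.71 ± 0.303 to 8.43 ± 0.446 with it (SD, n = 4).

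The PyMT difference of Slc7a5 was 1.42 ± 0.266 without the p38a label (2.67-fold, limma adjusted p = 0.0191) and 1.72 ± 0.266 with it (3.29-fold, adjusted p = 0.0099). The 2 comparisons share no arrays but share 1 estimate of the spread. In each, the exact two-sided permutation p was 0.0286, the smallest that 4 arrays against 4 allow. Slc7a5 was the only member called in either comparison, 1 of 31 against 1.26% of all genes tested without the p38a label and 1 of 31 against 0.777% with it. The size of the difference was not shown to depend on the p38a label, with an interaction of 0.30 ± 0.377 (95% interval −0.50 to 1.11, adjusted p = 0.992). Without MMTV-Cre replicate 4 the first difference was 1.26 (adjusted p = 0.0688), and without MMTV-Cre_PyMT replicate 1 it was 1.29 (adjusted p = 0.0776). With only the 8 arrays compared its adjusted p was 0.082, the highest over its alternatives, which began at 0.00447. Within the lower and higher title ranges the differences were 1.5 and 1.06 without the p38a label, the latter resting on 1 PyMT array, and 1.66 and 1.78 with it.

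The heavy chain that carries Slc7a5 to the membrane, Slc3a2, had no comparable difference. Its log2 signal was 10.79, 10.97, 11.72 and 10.93 in MMTV-Cre and 10.84, 11.08, 10.62 and 10.71 in MMTV-Cre_PyMT, so the groups overlapped. The difference was −0.30 ± 0.187 (95% interval −0.69 to 0.10) without the p38a label and 0.02 ± 0.187 (−0.38 to 0.42) with it, and both intervals exclude a change of the size seen in Slc7a5. The second value is near 0 and its sign turned under a second quantile normalization (−0.02).

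The other 4 transporters tested did not pass, apart from Slc7a1 for PyMT with the p38a label when arrays were weighted (limma's arrayWeights, which give less weight to arrays that fit poorly). Slc1a5, which exchanges glutamine and other neutral amino acids, had PyMT differences of 0.08 ± 0.179 and −0.10 ± 0.179. Slc38a2, a sodium-coupled importer of small neutral amino acids, had −0.40 ± 0.278 and −0.20 ± 0.278. Slc7a1, the carrier of arginine and lysine, varied most within groups, from 6.80 to 8.82 over the MMTV-Cre_PyMT arrays and from 6.11 to 8.12 over those labelled p38a_MMTV-Cre. Its interaction estimate was the largest among the members, 1.10 ± 0.664, and did not pass (adjusted p = 0.992). The probe sets of Slc7a1 that were not used gave interaction estimates of −0.03 and 0.38. Slc7a11 stayed between 2.94 and 3.27 in all 16 arrays and was not tested.

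**Figure D1:**
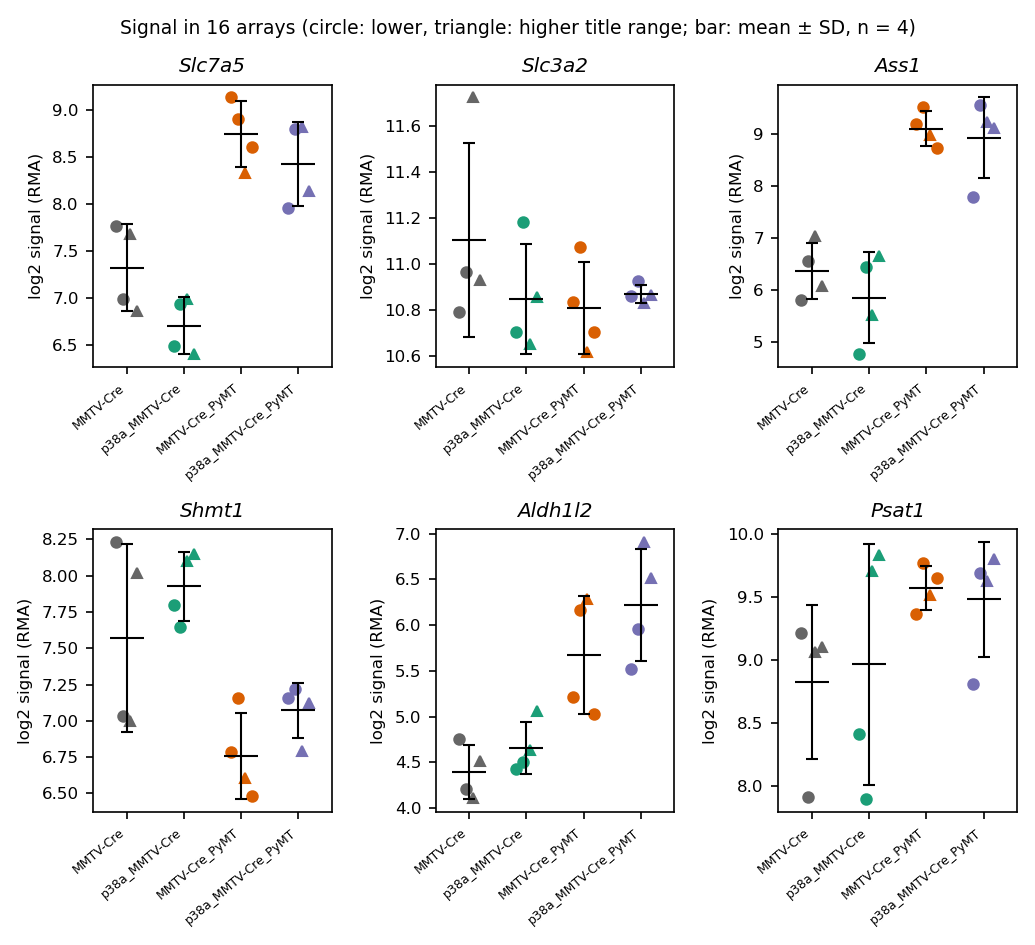
Log2 signal (RMA) of 6 genes in each of the 16 arrays, by genotype group; points are arrays (circles, lower title range; triangles, higher), and bars are the mean ± SD of 4 arrays. For Slc7a5 and Ass1 all 8 arrays with PyMT lie above all 8 without it, for Slc3a2 the groups overlap, and Shmt1 is lower with PyMT.

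Among the 5 listed enzymes of serine and one-carbon metabolism tested, Shmt1 fell with PyMT when both differences were averaged. It encodes the cytosolic serine hydroxymethyltransferase, which turns serine into glycine and passes a one-carbon unit to folate. Its log2 signal was 8.23, 7.03, 7.002 and 8.02 in MMTV-Cre and 6.79, 7.16, 6.60 and 6.48 in MMTV-Cre_PyMT, where 1 PyMT array lay within the range of the controls. In the arrays labelled p38a_MMTV-Cre it was 7.80, 7.65, 8.11 and 8.15, above all of the 7.16, 7.22, 6.79 and 7.12 of those labelled p38a_MMTV-Cre_PyMT, a separation downward that 3.75% of all genes shared. Neither difference passed alone, at −0.81 ± 0.26 (adjusted p = 0.149) and −0.85 ± 0.26 (adjusted p = 0.159).

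The mean of both PyMT differences, a contrast chosen after seeing the data, was −0.83 ± 0.184 for Shmt1 (limma adjusted p = 0.0157, 1 member called lower, against 2.51% of all genes). It remained past the threshold in all 25 alternatives of this contrast, with adjusted p from 0.000873 to 0.0389. All 4 probe sets of Shmt1 had estimates below 0 in both comparisons, from −0.08 to −0.85. For Slc7a5, which has 1 probe set, the same mean was 1.57 ± 0.188 (adjusted p = 0.000355, 1 member called higher, against 3.67% of all genes).

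The 3 enzymes of the phosphorylated pathway, which makes serine from a glycolytic intermediate, did not pass, apart from Phgdh for PyMT with the p38a label with arrayWeights. Psat1, its transaminase, had 9.21, 7.91, 9.06 and 9.10 in MMTV-Cre and 9.36, 9.76, 9.51 and 9.65 in MMTV-Cre_PyMT. These groups did not overlap, as was true of 4.44% of all genes in the higher direction, and the difference was 0.75 ± 0.402 (limma adjusted p = 0.452). The MMTV-Cre array at 7.91 lay well below the others of its group. Fits leaving out an array gave differences from 0.45 to 0.88. The arrays labelled p38a_MMTV-Cre split by title range, at 8.41 and 7.89 in the lower and 9.70 and 9.83 in the higher range.

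Psph, the phosphatase that ends the pathway, likewise separated without the p38a label. It rested at 6.53, 6.39, 6.23 and 6.06 in MMTV-Cre and 6.58, 6.66, 6.61 and 6.59 in MMTV-Cre_PyMT, a gap of less than 0.1 between the groups and a difference of 0.31 ± 0.141 (adjusted p = 0.346). Phgdh, the first enzyme, had PyMT differences of 0.07 ± 0.328 without the p38a label and 0.39 ± 0.328 with it. The probe set of Phgdh that was not used gave −0.09 and 0.92. Shmt2, the mitochondrial counterpart of Shmt1, had −0.06 ± 0.239 and 0.11 ± 0.239, so its intervals (−0.57 to 0.45 and −0.40 to 0.62) exclude a fall of the size of the Shmt1 estimates.

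Of the enzymes of proline synthesis and transamination, Aldh18a1 and Gpt2 were tested, and neither passed without array weights. Aldh18a1 makes the glutamate semialdehyde from which proline and ornithine are formed. Its log2 signal was 7.14, 7.18, 6.96 and 7.14 in the arrays labelled p38a_MMTV-Cre and 7.41, 7.64, 7.33 and 7.82 in those labelled p38a_MMTV-Cre_PyMT. These groups did not overlap, as did 4.41% of all genes in the higher direction, and the difference was 0.45 ± 0.167 (adjusted p = 0.269). Without the p38a label it was 0.33 ± 0.167 and the arrays overlapped. The probe set of Aldh18a1 that was not used gave 0.04 without the p38a label and 0.79 with it. The mean of both differences was 0.39 ± 0.118 (adjusted p = 0.067) and passed without MMTV-Cre replicate 1 (adjusted p = 0.0368) and without MMTV-Cre_PyMT replicate 3 (adjusted p = 0.0453). With arrayWeights Aldh18a1 passed for PyMT with the p38a label (0.58, adjusted p = 0.0148) and for the mean (0.46, adjusted p = 0.00719).

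Gpt2, the mitochondrial alanine transaminase, had 5.56, 6.502, 6.57 and 6.46 in the arrays labelled p38a_MMTV-Cre and 7.46, 6.96, 6.74 and 6.38 in MMTV-Cre. The difference was −0.61 ± 0.323 (limma adjusted p = 0.999), and 1 array of the former lay far below the other 3. The probe sets of Gpt2 that were not used gave −0.26 and −0.06. With PyMT the groups had means of 6.97 ± 0.539 and 6.95 ± 0.487 and overlapped.

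The stress-induced members were compared first between the arrays labelled p38a_MMTV-Cre and MMTV-Cre, the comparison that by its labels addresses p38a, a stress-activated kinase, in luminal cells without the oncogene. None of the 4 passed the test. Chac1, which degrades glutathione, had 6.51, 7.27, 6.25 and 6.55 in MMTV-Cre and 6.11, 6.05, 6.14 and 5.34 in the arrays labelled p38a_MMTV-Cre. All 4 of the latter lay below all 4 of the former, as was true of 1.17% of all genes in the lower direction. The difference was −0.73 ± 0.432 (limma adjusted p = 0.999, exact permutation p = 0.0286).

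Trib3, a pseudokinase that feeds back on ATF4 signalling, had 7.50, 8.19, 8.48 and 6.62 in MMTV-Cre and 6.97, 7.37, 6.74 and 6.47 in the arrays labelled p38a_MMTV-Cre. The lowest MMTV-Cre array lay among the p38a-labelled ones, and the difference was −0.81 ± 0.339 (adjusted p = 0.984). Sesn2, which restrains mTORC1 when leucine is scarce, had −0.61 ± 0.388. Asns makes asparagine and is a classical ATF4 target, with −0.48 ± 0.539. With PyMT, the differences for the p38a label were −0.39 ± 0.432 for Chac1, −0.08 ± 0.339 for Trib3, −0.37 ± 0.388 for Sesn2 and 0.33 ± 0.539 for Asns.

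The signal of Asns also differed with the title numbers, in opposite directions in the groups without PyMT. The arrays labelled p38a_MMTV-Cre read 9.57 and 9.11 in the lower range and 7.46 and 7.88 in the higher, while MMTV-Cre read 8.70 and 8.48 in the lower and 9.93 and 8.81 in the higher. The p38a difference of Asns was 0.75 within the lower range and −1.70 within the higher, with 2 arrays against 2 in each. Those of Trib3 were −0.67 and −0.95 and those of Chac1 −0.81 and −0.66. With the groups held equal, the higher range of titles differed from the lower by −0.66 ± 0.367 for Asns, which did not pass (limma adjusted p = 0.407); this contrast was added after seeing the data.

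**Figure D2:**
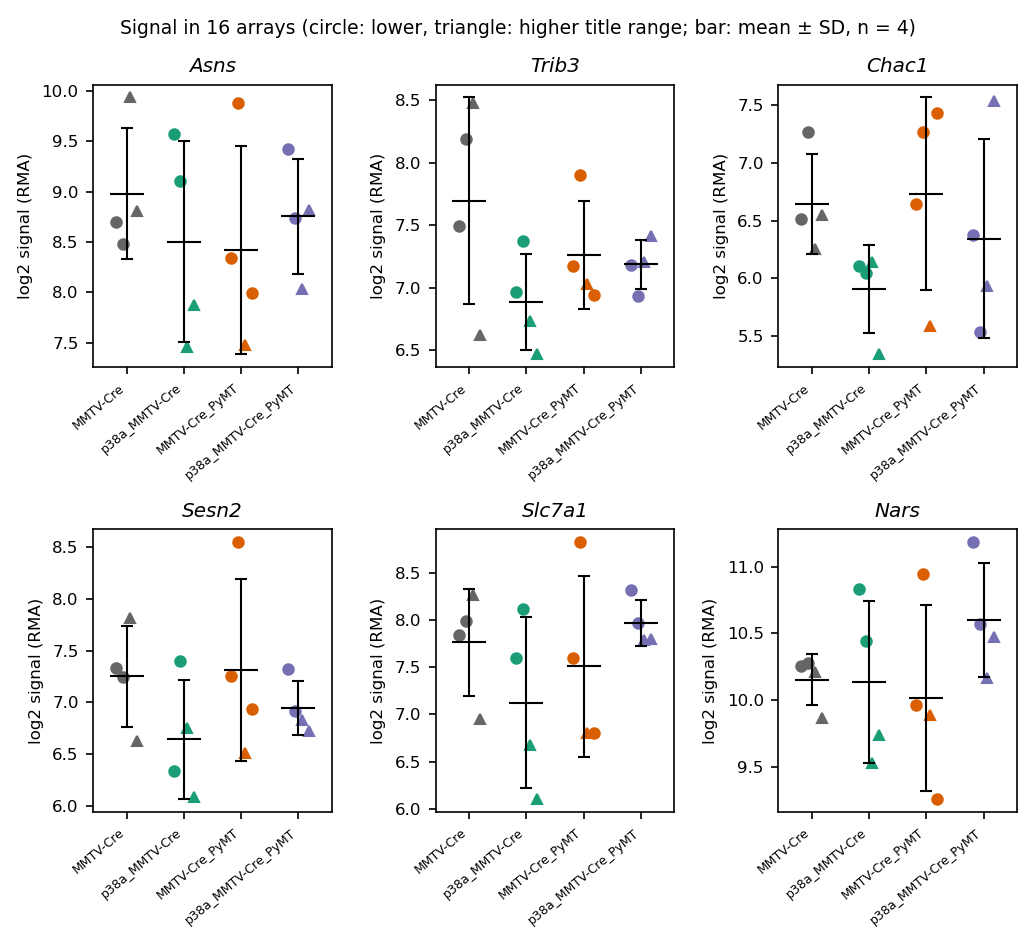
Log2 signal (RMA) of Asns, Trib3, Chac1, Sesn2, Slc7a1 and Nars in each of the 16 arrays, by genotype group; points are arrays (circles, lower title range; triangles, higher), and bars are the mean ± SD of 4 arrays. For Chac1 the 4 arrays labelled p38a_MMTV-Cre lie below the 4 MMTV-Cre arrays, and in the other panels these groups overlap.

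None of the 15 aminoacyl-tRNA synthetases tested was called by limma in any comparison. At an unadjusted p under 0.05 there were 2 for PyMT without the p38a label, against 13.8% of all genes. For the p38a label with PyMT there was 1, against 3.58%. There were 0 for PyMT with the p38a label (12.2%). The p38a label without PyMT (4.79%) and the interaction (2.82%) also had 0. With arrayWeights Eprs was called for PyMT without the p38a label, Nars for PyMT with it and Mars1 for the mean PyMT difference. Those fits called 1268, 1416 and 2644 of all 14410 genes tested. Eprs, which charges glutamate and proline, had the smallest p for the p38a label with PyMT. It rested at 7.98, 9.52, 9.29 and 8.07 in MMTV-Cre_PyMT and at 9.67, 9.11, 9.60 and 9.69 in the arrays labelled p38a_MMTV-Cre_PyMT. The first group was split, with 2 arrays near 8 and 2 above 9. The difference was 0.80 ± 0.309 (adjusted p = 0.999), and the other 3 probe sets of Eprs gave 0.31 to 0.94. Between MMTV-Cre_PyMT and MMTV-Cre, Eprs differed by −0.68 ± 0.309 (adjusted p = 0.35; −1.06 and 0.0383 with arrayWeights).

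Gars, the glycyl synthetase whose promoter stretch is shown above, had 8.92, 9.08, 9.31 and 8.73 in MMTV-Cre and 8.93, 8.07, 8.06 and 8.41 in the arrays labelled p38a_MMTV-Cre, which overlapped. Its difference was −0.64 ± 0.323 for the p38a label (adjusted p = 0.999) and −0.70 ± 0.323 for PyMT (adjusted p = 0.356). Lars, the leucyl synthetase, differed by 0.42 ± 0.205 for the p38a label with PyMT, and Nars, the asparaginyl synthetase, by 0.59 ± 0.341; neither passed. Estimates of the other 11 synthetases ran from −0.44 (Wars, tryptophan) to 0.26 (Vars, valine) for the p38a label without PyMT. For PyMT without the p38a label they ran from −0.34 (Iars, isoleucine) to 0.25 (Vars). The probe set of Iars that was not used gave 0.51 in this comparison.

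**Figure D3:**
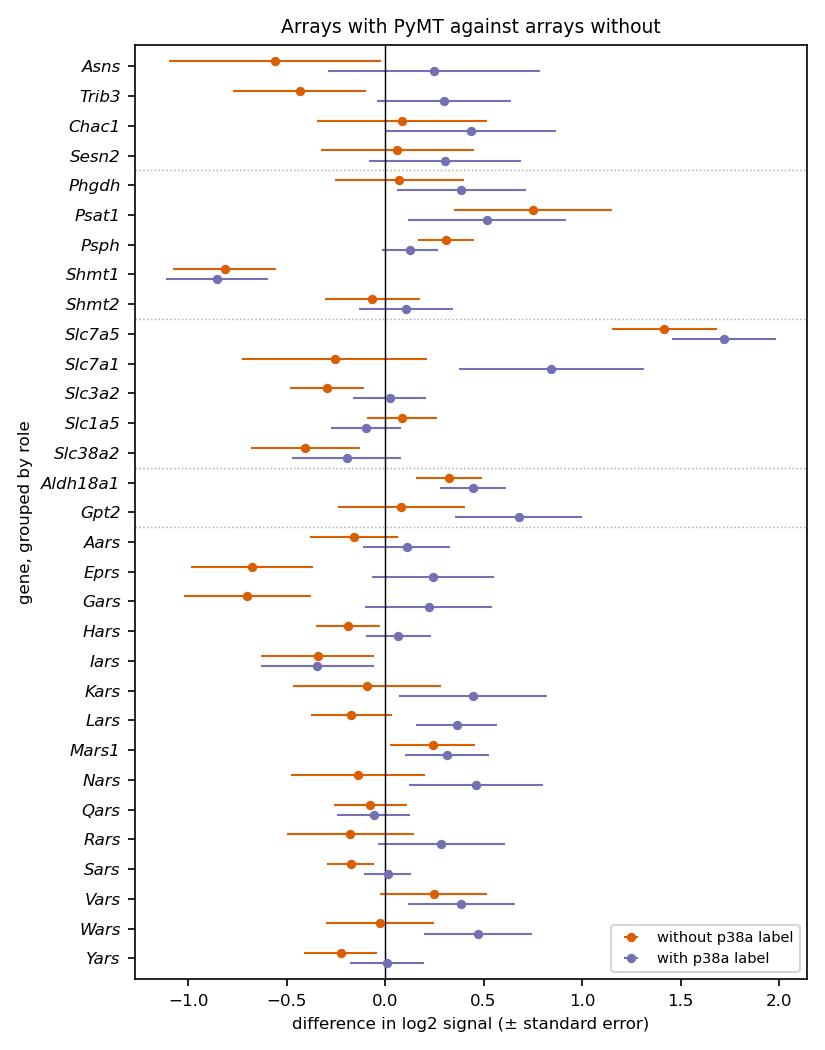
Difference in log2 signal between arrays with and without PyMT for each of the 31 members tested, grouped by role; points are limma estimates and bars their standard errors, without the p38a label (orange) and with it (purple). Slc7a5 stands at 1.42 and 1.72 and Shmt1 at −0.81 and −0.85, while the synthetases lie between −0.70 and 0.47.

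Set side by side over the 31 members tested, the estimates for the p38a label had a median of −0.12 without PyMT, with 24 of 31 below 0, where 50.1% of all genes were above 0. With PyMT the median was 0.13 and 20 of 31 lay above 0, against 41.8% of all genes. The synthetases contributed 13 of 15 below 0 in the first comparison and 12 of 15 above 0 in the second. The members' median within single arrays had a spread (SD) of 0.30 within groups, larger than either median difference. This SD describes single arrays and is not the standard error of a difference between groups. Genes measured on the same arrays are not independent. For the interaction 26 of 31 estimates were above 0 against 44.8% of all genes. No member passed in these 3 comparisons; at an unadjusted p under 0.05 there were 3 of 31 for the p38a label without PyMT (4.79% of all genes), 2 of 31 with PyMT (3.58%) and 0 of 31 for the interaction (2.82%).

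For PyMT without the p38a label the median member difference was −0.14, with 11 of 31 above 0 against 55% of all genes. With the p38a label it was 0.29, with 26 of 31 above 0 against 46.5% of all genes. At an unadjusted p under 0.05 there were 5 of 31 members without the p38a label (13.8% of all genes) and 3 of 31 with it (12.2%). With arrayWeights 3 and 6 members were called, Shmt1 and Slc7a5 in both comparisons, while 1268 and 1416 of all genes were. The corresponding role medians for the synthetases were −0.17 and 0.24, and for the stress-induced members −0.19 and 0.30.

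**Figure D4:**
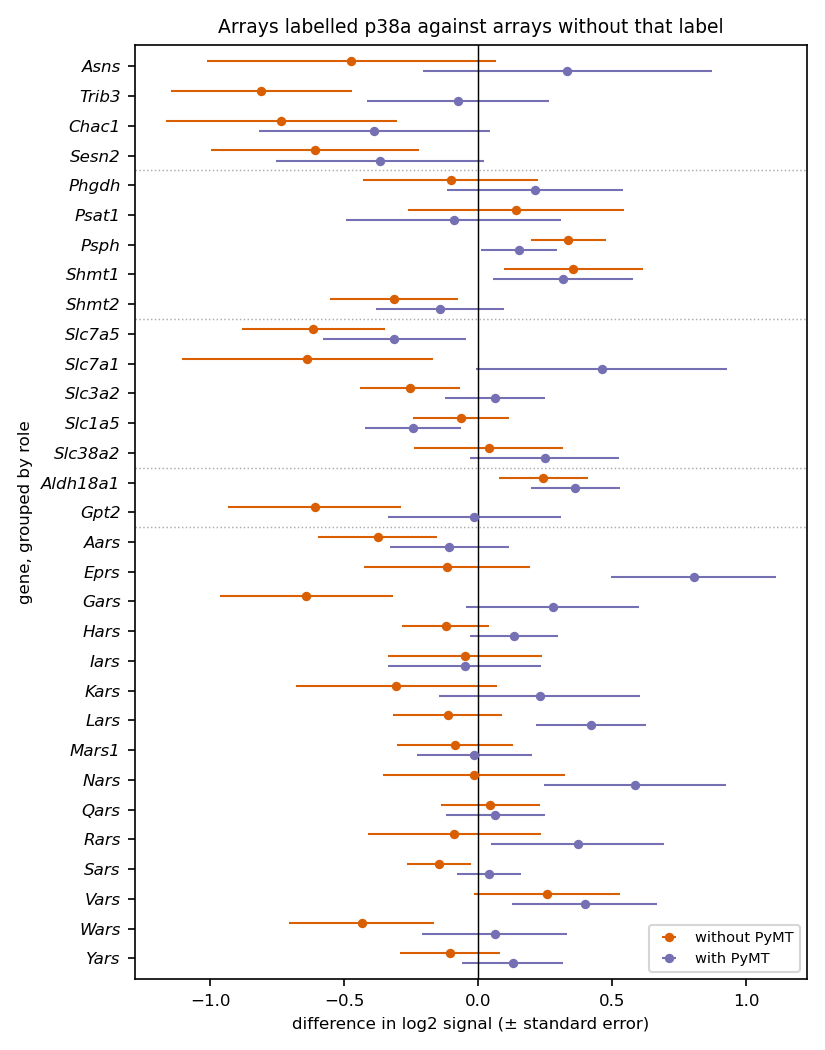
Difference in log2 signal between arrays with and without the p38a label for each of the 31 members tested, grouped by role; points are limma estimates and bars their standard errors, without PyMT (orange) and with it (purple). The 4 stress-induced members lie between −0.81 and −0.48 without PyMT and none of the 31 passed the test.

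Other genes of the same pathways, from lists written for this purpose, were read from the same fit. Among the integrated stress response factors and kinases, 1 of 17 tested rose and 1 fell with PyMT without the p38a label (1.26% of all genes were called), and 0 were called by limma with it (0.777% of all genes). At an unadjusted p under 0.05 there were 4 of 17 in each, against 13.8% and 12.2% of all genes. The gene that rose was Cebpb, a C/EBP factor that can pair with ATF4, from 8.65, 8.17, 9.36 and 8.15 to 10.36, 9.27, 9.99 and 10.93, where 1 PyMT array lay below the highest control. Its difference was 1.56 ± 0.353 (adjusted p = 0.0457). That call held in 4 of 16 fits leaving out an array, with adjusted p up to 0.143, and the mean of all Cebpb probe sets gave 0.67 (adjusted p = 0.0969).

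The gene that fell was Cebpg, an ATF4 partner that activates amino acid genes. It went from 9.74, 9.14, 10.28 and 10.15 in MMTV-Cre to 7.93, 8.87, 8.11 and 7.97 in MMTV-Cre_PyMT, with every PyMT array below every control, as was true of 2.65% of all genes. The difference was −1.61 ± 0.271 (adjusted p = 0.0113). It passed in all 16 fits leaving out an array, but not with the mean of its probe sets (−1.12, adjusted p = 0.106) or with only the 8 arrays compared (adjusted p = 0.0825). In the arrays with the p38a label the PyMT difference of Cebpg was −0.88 ± 0.271 (adjusted p = 0.167). Atf4 itself differed by −0.66 ± 0.249 for PyMT without the p38a label (limma adjusted p = 0.234).

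Among 19 other amino acid and folate enzymes, 1 rose with PyMT without the p38a label and 2 with it, against 1.26% and 0.777% of all genes called. Ass1, which builds argininosuccinate and so makes arginine from citrulline, was called in both. It read 5.81, 6.56, 7.03 and 6.08 in MMTV-Cre and 9.19, 9.52, 8.98 and 8.72 in MMTV-Cre_PyMT. In the arrays labelled p38a_MMTV-Cre it read 4.77, 6.45, 5.53 and 6.65, and 7.79, 9.56, 9.22 and 9.12 in those labelled p38a_MMTV-Cre_PyMT. The difference of Ass1 was 2.73 ± 0.431 (adjusted p = 0.00841) and 3.08 ± 0.431 (adjusted p = 0.00533). Both calls held in all 26 alternatives.

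Aldh1l2, the mitochondrial enzyme that releases one-carbon units as carbon dioxide and NADPH, read 4.43, 4.51, 4.63 and 5.07 in the arrays labelled p38a_MMTV-Cre and 5.52, 5.96, 6.91 and 6.51 in those with PyMT. The groups did not overlap, as 4.41% of all genes did not in the higher direction, and the difference was 1.56 ± 0.322 (adjusted p = 0.0364), called in 10 of 16 fits leaving out an array, with adjusted p up to 0.137 (without p38a_MMTV-Cre_PyMT replicate 3). Without the p38a label it was 1.28 ± 0.322 (adjusted p = 0.0708). No gene was called among 14 mitochondrial synthetases, 5 other synthetase subunits and scaffold genes, 14 other transporters and 12 genes of amino acid sensing by mTORC1 in either PyMT comparison; 2, 1, 0 and 1 of them had an unadjusted p under 0.05 without the p38a label (13.8% of all genes) and 0, 2, 0 and 2 with it (12.2%).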

How the data were processed

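The authors deposited RMA log2 signals for each probe set on each array, per the submitters' processing notes, which name neither version nor settings. RMA equalises the distributions of the arrays, so differences in total RNA cannot be read from these values. Of 45141 probe sets, 28898 carried 1 gene symbol, 551 carried several and were left out, and 15692 are unnamed here. Symbols were checked against RefSeq by Entrez ID (28689 matched). Each gene took the probe set of highest mean, and genes with a mean of at least 3.67, the 25th percentile of all probe sets, were tested. No 2 arrays were identical. One linear model over the 4 groups was fitted in limma 3.58.1 (R 4.3.3; 12 residual degrees of freedom), and a gene was called at a two-sided Benjamini-Hochberg adjusted p under 0.05 over all genes tested. The procedure was tested on simulated data.

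The members and lists were chosen with earlier results of these data known. Named are members called in a comparison, the 4 with the smallest p in each, and per role the one with the widest range of group means; other members are named to complete a role. From the other lists of the same pathways, called genes are named. Immediate early genes, proliferation genes and cell type markers are given mainly as list means, and not every called gene among them is named. Mean PyMT and title range contrasts were added after seeing the data. Alternatives were no filter, a stricter filter, averaging a gene's probe sets, eBayes with trend and robust, second quantile normalization, median centring, arrayWeights, only the arrays compared, a title range covariate, leaving out the 2 arrays that correlate least with the others, and leaving out each array in turn.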

Additional observations from a re-analysis of the deposited data

Results flagged for a closer look

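In 3 of 64 groups of 4 arrays examined, 1 array stood apart from the other 3 by Dixon's criterion, which chance meets in about 1 of 20 groups. These groups did not cover all members tested. Eprs read 9.11 in p38a_MMTV-Cre_PyMT replicate 2, below the other 3 arrays at 9.60 to 9.69. Gpt2 read 5.56 in p38a_MMTV-Cre replicate 1, below the others at 6.46 to 6.57. Chac1 read 5.34 in p38a_MMTV-Cre replicate 4, below the others at 6.05 to 6.14.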

How the results depend on the processing

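No paired analysis was possible because the labels carry no replicate numbers shared between groups. Of the counts and medians over members and genes, 357 values under an alternative stayed near the reported one and 30 moved. With arrayWeights, genes called were 8 and 5 for the p38a label without and with PyMT, 1268 (60.7% higher) and 1416 (45.8% higher) for PyMT without and with that label; members called were 3 (Shmt1, Slc7a5, Eprs) and 6 (Phgdh, Shmt1, Slc7a5, Slc7a1, Aldh18a1, Nars). With only the arrays compared, 55 genes and 0 members were called for PyMT without the label and 169 genes with it. Without a filter 1 gene was called for the p38a label, and without both weakly correlated arrays 111 genes for PyMT without the label. Leaving out each array in turn gave 0 to 4 and 0 to 3 genes for the p38a label, 49 to 443 genes and 0 to 1 members for PyMT without it, and 26 to 230 genes with it. The Slc3a2 PyMT difference with the p38a label turned to −0.0165 under second quantile normalization, to −0.0259 without p38a_MMTV-Cre replicate 1 and to −0.0420 without replicate 3, and reached 0.133 without replicate 2. For the mean PyMT difference, arrayWeights called 4 members and 2644 genes. The causes were not tested. The number of arrays limits how small a difference could be called.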

Other observations

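Single genes of the other lists were also called when both PyMT differences were averaged, a contrast chosen after seeing the data. Odc1, which makes putrescine from ornithine, was 0.96 ± 0.191 higher (limma adjusted p = 0.00906), from 6.33 to 7.36 over the 8 arrays without PyMT and 7.37 to 8.59 over the 8 with it. Eef1e1, a scaffold subunit of the multisynthetase complex, was 1.01 ± 0.239 higher (adjusted p = 0.0218), the 1 of 5 such subunits and scaffold genes called, with Aimp1 at −0.43; the call was lost without p38a_MMTV-Cre_PyMT replicate 2 (adjusted p = 0.0537). Sesn1, a sestrin of the mTORC1 pathway, was lower at −0.71 ± 0.177 (adjusted p = 0.0288; called in 9 of 16 fits leaving out an array). Eif2ak1, the haem-regulated eIF2 kinase, was lower at −0.46 ± 0.129 (adjusted p = 0.0482; called in 3 of 16).

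With the groups held equal, the higher title range was compared with the lower. No member was called by limma (0.111% of all genes were), and 6 of 31 had an unadjusted p under 0.05 against 15.3% of all genes. These were Phgdh (−0.64), Slc7a1 (−0.75) and Nars (−0.51), lower in the higher range, and Qars (0.33), Eprs (0.44) and Psat1 (0.68), higher in it.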
